A study of Mus musculus with 6 samples.

Results

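Imprinted growth regulators were examined in the embryonic mouse pancreas: Plagl1, Igf2, H19, Dlk1, Meg3, Cdkn1c, Peg3 and Grb10. The members were chosen by name, and all 8 are present among the 31028 gene symbols of the RNA matrix and among the 8269 gene symbols of both ATAC matrices. The embryos were C57BL/6 mice, either wild type (Ptf1a+/+, called WT) or homozygous for an enhancer deletion at Ptf1a (Ptf1aenh-delta/enh-delta, called KO). Ptf1a encodes a transcription factor that pancreatic progenitors and later acinar cells need. Single-cell RNA sequencing of dissected pancreatic tissue at embryonic day 10.5 (E10.5), single-cell ATAC sequencing (a transposase assay of open chromatin) at E10.5, and the same ATAC assay on pancreas at embryonic day 13.5 (E13.5) gave 6 libraries, 1 for each genotype, assay and stage. Each library was made from a pool of embryos, 5 to 9 at E10.5 and 6 at E13.5. Because every group is 1 library, no difference between genotypes has a replicate check and no test was made. Intervals below cover counting error only.

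An imprinted gene is expressed mainly from the copy inherited from one parent, and many such genes set the pace of fetal growth. Growth-promoting members such as Igf2, Dlk1 and Peg3 are expressed from the paternal copy, while growth-restraining members such as H19, Meg3, Cdkn1c and Grb10 are, in most tissues, expressed from the maternal copy. Igf2 with H19, and Dlk1 with Meg3, are neighbours that share one imprinting control region, so that the same locus yields a paternal protein-coding RNA and a maternal noncoding RNA. The deposited values do not separate the parental copies, so every level here is the sum of both.

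Per GENCODE M21 on GRCm38, H19 lies at chr7:142575529-142578143 and Igf2 at chr7:142650766-142666816, 72623 bases apart. Cdkn1c lies on the same chromosome at chr7:143458339-143461050, and Peg3 at chr7:6703892-6730431. Dlk1 (chr12:109452823-109463336) and Meg3 (chr12:109541001-109571726) are 77665 bases apart on chromosome 12. Plagl1 lies at chr10:13060504-13131694 and Grb10 at chr11:11930508-12038683. H19 and Meg3 are annotated as long noncoding RNAs and the other members as protein-coding genes. One annotation matters for a level below: the model Gm49394 lies on the strand of Igf2 and covers 62.8% of its exon bases.

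RefSeq promoter windows (GRCm38.p6) were given for 6 of the 8 members, 11 windows in all, and H19 and Cdkn1c have no entry. In the 250 bases before each start, 2 motifs were searched on both strands: GGGGCCCC, bound by Plagl1, and TGCCGC, bound by Zfp57, a protein that protects imprints after fertilisation. GGGGCCCC is its own reverse complement. Of 32851 such windows, 0.889% hold GGGGCCCC and 8.68% hold TGCCGC. Among the members, GGGGCCCC occurs once, in the Peg3 window, and TGCCGC occurs once each in the Plagl1 window and in 1 of the 2 Meg3 windows, as its reverse complement. The 3 windows are shown because these are the members whose windows hold a match, which is in capitals. The Plagl1 window is chr10:13090582-13090831 (plus strand), the Meg3 window is chr12:109540746-109540995 (plus strand) and the Peg3 window is chr7:6730420-6730669 (minus strand). A match describes the letters only and is not a measured site.
Plagl1: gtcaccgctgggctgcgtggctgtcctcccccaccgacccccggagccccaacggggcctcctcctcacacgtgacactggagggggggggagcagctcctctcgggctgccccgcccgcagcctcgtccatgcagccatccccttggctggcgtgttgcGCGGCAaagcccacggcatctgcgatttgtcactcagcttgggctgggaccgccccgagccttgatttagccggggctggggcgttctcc
Meg3: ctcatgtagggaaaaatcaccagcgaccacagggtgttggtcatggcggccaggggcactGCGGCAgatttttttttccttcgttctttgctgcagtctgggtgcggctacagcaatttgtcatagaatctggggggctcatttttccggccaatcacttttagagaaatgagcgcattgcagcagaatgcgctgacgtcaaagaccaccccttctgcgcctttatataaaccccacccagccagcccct
Peg3: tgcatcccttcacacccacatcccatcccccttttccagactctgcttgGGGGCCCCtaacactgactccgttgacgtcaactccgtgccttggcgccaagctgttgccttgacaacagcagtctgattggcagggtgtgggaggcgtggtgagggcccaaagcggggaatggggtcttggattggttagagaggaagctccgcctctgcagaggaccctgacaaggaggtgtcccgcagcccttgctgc

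The RNA libraries hold 4665222 (WT) and 4360076 (KO) unique molecular identifiers (UMIs, 1 per captured RNA molecule). Of 1104 and 815 barcodes, 451 and 369 had at least 1000 detected genes and were kept as cells. Ptf1a, the targeted gene, had 142 UMIs in the WT cells and 0 in the KO cells. Xist, the transcript of the inactive X chromosome of females, had 301 and 2358 UMIs, and the part of the pools' sex makeup in the genotype differences was not tested. The cells were clustered without the members, the other imprinted genes and the IGF pathway genes. A mesenchyme-like cluster held 162 WT and 104 KO cells (leading genes other than Plagl1: Fbn2 and Nkx2-3), a cluster with progenitor and epithelium markers held 123 and 73 (Nepn, Spp1, Vtn; the progenitor class), and an endocrine-like cluster held 58 and 127 (Ghrl, Sst, Cartpt). Cluster 3, which was not named, held 80 and 19 cells led by Sox17, Ube2c and Ifitm3. Cluster 4 held 28 and 46 cells led by Barx1, Hoxb4 and Tmem27. By the naming rule given under processing it was mesenchyme-like, with 14 of 14 markers raised and 3 in its top 10 genes. It also carried endocrine markers (summed 21801 and 15538 CPM, the count scaled to a common total per library and class). With these markers and a median of 20206.5 and 17068 UMIs per cell, it was left without a cell type name. The mesenchyme-like class also held other markers: summed progenitor and epithelium markers were 1313 (WT) and 1874 CPM (KO), beside 2007 and 2209 CPM of mesenchyme markers. Although the tissue is labelled as multipotent progenitors, the progenitor class makes up 27.3% of the WT and 19.8% of the KO cells.

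Plagl1, a zinc-finger transcription factor that acts on several other imprinted genes, was higher in the mesenchyme-like class than in the progenitor and endocrine-like classes. In the WT library its level was 177 CPM (95% Poisson interval 150.2 to 206) in the mesenchyme-like class, 19.3 in the progenitor class and 5.86 in the endocrine-like class. In the KO library the same classes had 142 (114 to 175), 10.2 and 15.4 CPM. The mesenchyme-like class stood above both other classes in each library, with intervals that did not meet. Cells were also thinned to 2000 UMIs each, which left out the 61 WT and 45 KO kept cells with fewer. Plagl1 was then seen in 33 of 110 WT mesenchyme-like cells and in 0 of 58 WT endocrine-like cells (up to 5.17% of cells with a UMI at that depth). As deposited, it was seen in 36.4% of the 162 WT mesenchyme-like cells and in 6.90% of the 58 endocrine-like cells, at median depths of 2441.5 and 11314 UMIs. The barcodes with fewer genes, which were not kept as cells, had 189.8 CPM (WT) and 172 CPM (KO) of Plagl1, near the mesenchyme-like class, and their summed mesenchyme markers (2087 and 2418 CPM) were also near that class (2007 and 2209 CPM).

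The log2 ratio of mesenchyme-like over progenitor cells was 2.67 for Plagl1 in the WT and 2.91 in the KO library, on log2(CPM + 10), the scale of every log2 ratio of RNA levels here. In the WT library it was the 1 member of 7 past 2-fold higher, where 2.97% of all genes were, and none was past 2-fold lower (1.8% of all genes). In the KO library the count was again 1 of 7, beside 1.89% of all genes, and Dlk1 was past 2-fold lower there (1 of 7, beside 1.7%). Endocrine-like over progenitor cells, at fewer than 50 UMIs, the Plagl1 ratio was 0.303 in the WT library (interval 0.0779 to 0.855) and 1.51 in the KO library (0.703 to 3.39). Cluster 4 had 143 CPM in the WT library, where its interval overlapped that of the mesenchyme-like class, and 36.0 in the KO library, where it did not.

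Igf2, the fetal growth factor that signals through the IGF1 and insulin receptors, was nearly absent from the RNA counts. It had 72 UMIs in all WT and 34 in all KO cells. Its levels ran from 11.7 to 27.6 CPM over the WT clusters and from 3.60 to 14.4 over the KO clusters, and the intervals of all neighbours in that order overlapped. These low counts cannot be read as low expression. Gm49394, which overlaps Igf2 on the same strand, is listed in the matrix with 0 UMIs, and how reads that fit both gene models were counted was not stated. The antisense gene Igf2os had 37 and 22 UMIs. No class difference of Igf2 RNA is therefore drawn.

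H19, the maternal noncoding RNA next to Igf2, was abundant and graded by class. In the WT library it fell from 1745 CPM in the mesenchyme-like class to 989.8 in the progenitor class, 715 and 459 in clusters 3 and 4, and 269 in endocrine-like cells. In the KO library the order was the same: 1415, 885, 431, 344 and 213 CPM. In the WT library no neighbours in this order had overlapping intervals, and in the KO library only clusters 3 and 4 did. The span from highest to lowest cluster was 6.48-fold (WT) and 6.64-fold (KO). The low-gene barcodes, which were not kept as cells, had 2263 (WT) and 1895 CPM (KO) of H19, above every cluster. The mesenchyme-like class also had the lowest median depth of the clusters, at 2441.5 (WT) and 2538.5 (KO) UMIs per cell. The part of depth in this order was not tested.

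Dlk1, a membrane protein related to the Notch ligands and a marker of immature cells, was highest in the progenitor class and lowest in the endocrine-like class in both libraries. The WT levels were 1166 CPM in the progenitor class, 955 (cluster 3), 743 (mesenchyme-like), 329.8 (cluster 4) and 289.9 CPM (endocrine-like). The KO levels in the same order were 2037, 1401, 702, 235 and 196 CPM. The order of the 5 clusters was identical in both libraries, and only cluster 4 and the endocrine-like class overlapped. The span was 4.02-fold in the WT and 10.4-fold in the KO library.

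Endocrine-like over progenitor cells, H19 had a log2 ratio of -1.84 in the WT and -2.01 in the KO library, and Dlk1 had -1.97 and -3.31. These were 2 of 6 members past 2-fold lower, where 8.75% (WT) and 8.52% (KO) of all genes were. No member was past 2-fold higher (7.64% and 8.2% of all genes). Against the mesenchyme-like class, Plagl1, H19 and Dlk1 were lower in endocrine-like cells in both libraries, 3 of 7 members beside 11.4% (WT) and 8.6% (KO) of all genes. None was past 2-fold higher, beside 9.12% and 10.3%. Thinning reduced the WT count to H19 alone, with Dlk1 at -0.89. Over the 7 members the median log2 ratio was -0.46 in the WT and -0.68 in the KO library, beside -0.08 and -0.01 over all genes.

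Meg3, the maternal noncoding RNA of the Dlk1 locus, followed another pattern than Dlk1. Its WT levels were 2937 CPM in the endocrine-like class, 2588 in the progenitor class, 2178 in cluster 4, 1909 in the mesenchyme-like class and 213 in cluster 3. In the KO library it was 3914 CPM in the progenitor class, 3259.7 in the endocrine-like class, 2289 in cluster 4, 2097 in the mesenchyme-like class and 515 in cluster 3. The endocrine-like cells that had little Dlk1 thus kept Meg3 near the progenitor level. The log2 ratio of endocrine-like over progenitor cells was 0.18 for Meg3 in the WT and -0.26 in the KO library, against -1.97 and -3.31 for Dlk1.

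Peg3, a paternally expressed zinc-finger protein, was highest in the endocrine-like class in both libraries. The WT levels were 3272 CPM there, 2913 in cluster 4, 2282 in the progenitor class, 1926 in the mesenchyme-like class and 522 in cluster 3. The KO levels were 3328, 2929.5, 2839, 2150.2 and 683 CPM in the same order. The order was the same in both libraries, and only cluster 4 and the progenitor class of the KO library overlapped.

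Cluster 3 stood apart for these RNAs. Over the progenitor class, Meg3 had a log2 ratio of -3.54 in the WT and -2.90 in the KO library, and Peg3 had -2.11 and -2.04. These were 2 of 6 members past 2-fold lower in the WT library (beside 15.5% of all genes), while in the KO library Grb10 and H19 were also past it, 4 of 6 (beside 21.5%). None was past it higher, beside 0.134% and 1.73%. The imprinted antisense RNA Kcnq1ot1 was lower still, at -4.69 and -4.15. Malat1, a nuclear-retained noncoding RNA picked after its values were seen, was at 2082 and 2384 CPM in cluster 3 and at 10468 and 11779 in the progenitor class. Cluster 3 cells had a median of 4357 (WT) and 3142 (KO) UMIs, and the share of nuclear RNA in the cells was not tested.

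Cdkn1c encodes p57, an inhibitor of cyclin-dependent kinases that holds cells in G1. Its WT levels were 1063 CPM in cluster 4, 949.7 in the mesenchyme-like class, 842 in the endocrine-like class, 610.4 in the progenitor class and 585 in cluster 3. The KO levels were 1222 CPM in cluster 3, 1187 in the endocrine-like class, 1138 in the progenitor class, 1016 in cluster 4 and 974 in the mesenchyme-like class. The order differed between the libraries: in the WT library the progenitor class lay below the endocrine-like class without overlap, and in the KO library all neighbours overlapped. Classes further apart in the KO order still differed. Endocrine-like over mesenchyme-like cells, the KO ratio was 1.22 (interval 1.11 to 1.34). Mesenchyme-like over progenitor cells, it was 0.856 (0.776 to 0.942), against 1.56 (1.42 to 1.71) in the WT library. The span was 1.82-fold in the WT and 1.25-fold in the KO library.

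Grb10, an adaptor protein that binds the insulin and IGF1 receptors and dampens their signal, was lowest in cluster 3 in both libraries. The 3 named classes had 581 (mesenchyme-like), 484 (progenitor) and 420.2 CPM (endocrine-like) in the WT library and 638, 641 and 394 CPM in the KO library. Cluster 3 had 249 and 299 CPM. Endocrine-like over progenitor cells, its ratio was 0.869 in the WT (interval 0.756 to 0.995) and 0.615 in the KO library (0.548 to 0.689). The span over the 5 clusters was 2.34-fold (WT) and 2.14-fold (KO).

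**Figure D1:**
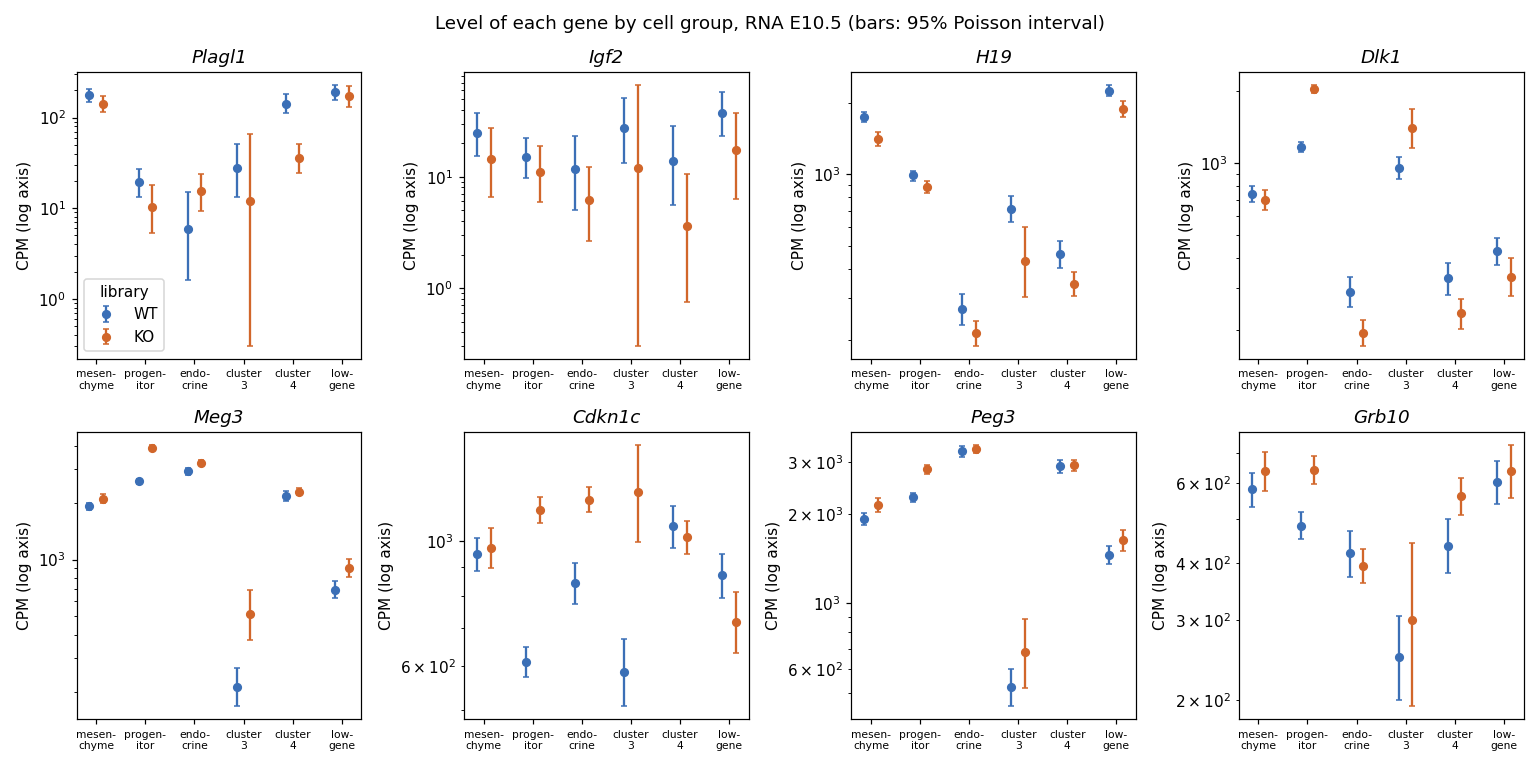
Level of each gene in CPM (log axis) in the 5 RNA clusters and in the low-gene barcodes at E10.5, for the WT (blue) and KO (orange) library; bars are 95% Poisson intervals of the summed UMIs. Plagl1 is high in the mesenchyme-like class (177 and 142 CPM), Dlk1 in the progenitor class (1166 and 2037 CPM), and Meg3 and Peg3 are low in cluster 3.

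The levels were then compared between genotypes. Over all kept cells, 0 of 8 members passed 2-fold in either direction, beside 0.357% of all genes higher and 0.27% lower. Thinning to 2000 UMIs, with the cells under that number left out, brought Plagl1 past it (log2 ratio -1.09). Igf2 had 17.5 and 8.47 CPM, a ratio of 0.483 (interval 0.312 to 0.736) that the added 10 CPM brings to a log2 ratio of -0.58. Plagl1 had 67.5 CPM in the WT and 37.9 in the KO cells (ratio 0.562, interval 0.458 to 0.687), and H19 had 946 and 629 CPM (ratio 0.664, interval 0.632 to 0.699). Cdkn1c had 777 and 1104 CPM (ratio 1.42, interval 1.36 to 1.49), and Meg3 had 2238 and 3011 CPM (ratio 1.35, interval 1.31 to 1.38). The median log2 ratio of all 10367 genes was 0.13, the same as the members' median of 0.13.

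The makeup of the libraries moved with these whole-library values. The endocrine-like class held 16.6% of the UMIs of the WT cells and 32.3% of those of the KO cells, the progenitor class 40.4% and 29.3%, and the mesenchyme-like class 21.9% and 15.6%. When the KO clusters were weighted by their WT share, a calculation added after seeing the data, the log2 ratio of H19 went from -0.58 to -0.27 and that of Dlk1 from 0.07 to 0.52. For Cdkn1c it was 0.50 either way, and for Meg3 0.43 and 0.38. The values within classes are therefore given next.

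In the progenitor class, 5 of the 6 members with at least 50 UMIs were higher in the KO library with intervals above 1, beside 20% of all genes, and H19 was lower with an interval below 1, beside 7.66%. These shares are not a like comparison, because intervals narrow as counts rise. Grb10, the member with the fewest UMIs of the 6, had 802 and 753, while the shares cover genes from 50 UMIs up. Cdkn1c went from 610.4 to 1138 CPM (log2 ratio 0.89; ratio 1.86, interval 1.72 to 2.02). Dlk1 went from 1166 to 2037 CPM (0.80; ratio 1.75, interval 1.64 to 1.86). Meg3 went from 2588 to 3914 CPM (0.59; ratio 1.51, interval 1.45 to 1.58). None of the 6 members passed 2-fold, where 1.39% of all genes passed it higher and 0.695% lower. The members' median log2 ratio was 0.50, and that of all 6908 genes was 0.14. With median-of-ratios scaling the log2 ratios were 0.72 for Cdkn1c, 0.63 for Dlk1 and 0.42 for Meg3. With no cell filter, so that the low-gene barcodes were clustered too, they were 0.42, 0.36 and 0.30. Grb10 (0.40) and Peg3 (0.31) were higher by less, and H19 had -0.16.

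The progenitor class is not uniform, and its makeup also moved with genotype. At Leiden resolution 0.5 it split into a group led by Nepn, Spp1 and Spon1 (109 WT and 36 KO cells of the class) and a group led by Sox17, Itih2 and Paqr9 (14 and 37 cells). In the WT library, the Sox17 group had 1136 CPM of Cdkn1c and the Nepn group 535, and Cdkn1c was the 1 member of 6 past 2-fold higher (beside 1.3% of all genes). In the KO library, the Sox17 group had 2712 CPM of Dlk1 and the Nepn group 1333, and Dlk1 was the 1 member of 6 past it (beside 0.917%). None was past 2-fold lower, beside 3.58% and 2.27%. Peg3 ran the other way, at 1556 against 2359 CPM (WT) and 1978 against 3656 CPM (KO).

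Within the groups the genotype ratios of Cdkn1c were smaller than in the whole class, and those of Dlk1 differed between the groups. In the Nepn group, Cdkn1c went from 535 to 892 CPM (log2 ratio 0.73) and Dlk1 from 1097 to 1333 CPM (0.28). In the Sox17 group, Cdkn1c went from 1136 to 1382 CPM (0.28) and Dlk1 from 1502 to 2712 CPM (0.85). Meg3 was higher in the KO library in both groups, with log2 ratios of 0.66 and 0.44. With cells from outside the class, the Sox17 group had 21 WT and 39 KO cells, and the difference of the ratios between the groups was not tested. Xist had 0 UMIs in the WT and 629 in the KO cells of the Sox17 group, and 115 and 429 in the Nepn group. The part of the pools' sex makeup in these ratios was not tested.

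In the endocrine-like class, Dlk1 was lower in the KO library, at 289.9 CPM in the WT and 196 in the KO library (log2 ratio -0.54; ratio 0.676, interval 0.559 to 0.818). H19 was also lower, at 269 and 213 CPM (-0.33; ratio 0.791, interval 0.654 to 0.958). Cdkn1c was higher, at 842 and 1187 CPM (0.49; ratio 1.41, interval 1.28 to 1.55), and Meg3 was at 2937 and 3259.7 CPM (0.15). Peg3 and Grb10 had intervals that included 1. None of 6 members passed 2-fold, beside 0.369% of all genes higher and 0.117% lower.

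In the mesenchyme-like class, H19 had 1745 CPM in the WT and 1415 in the KO library (log2 ratio -0.30; ratio 0.811, interval 0.746 to 0.881). Peg3 (0.16) and Meg3 (0.13) had intervals just above 1. Plagl1, Dlk1, Cdkn1c and Grb10 had intervals that included 1, which does not show that their levels were equal: for Plagl1 the interval ran from 0.614 to 1.05. None of 7 members passed 2-fold, beside 0.541% of all genes higher and 0.213% lower. With the members and lists kept in the clustering, Plagl1 did, at -1.20. That cluster held 114 WT and 107 KO cells and shared only 165 of the 266 cells of this class, and Plagl1 could itself shape it.

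Members passed 2-fold only in the 2 clusters left without a cell type name, of which cluster 4 met the naming rule as mesenchyme-like. In cluster 3, Meg3 had 213 and 515 CPM (log2 ratio 1.24, from 77 and 43 UMIs) and Cdkn1c had 585 and 1222 CPM (1.05, from 212 and 102 UMIs), 2 of 6 members beside 2.02% of all genes higher, and no member was past 2-fold lower (2.48%). The KO side rests on 19 cells. In cluster 4, Plagl1 had 143 and 36.0 CPM (-1.73, from 72 and 30 UMIs), 1 of 7 members beside 0.236% of all genes lower, and no member was higher (0.772%). Cluster 4 had 1 WT and 4 KO cells called as doublets. Its summed mesenchyme markers were 1365 and 1692 CPM, and its summed endocrine markers, given above, were lower in the KO library. The part of the cluster's makeup in the Plagl1 ratio was not tested.

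**Figure D2:**
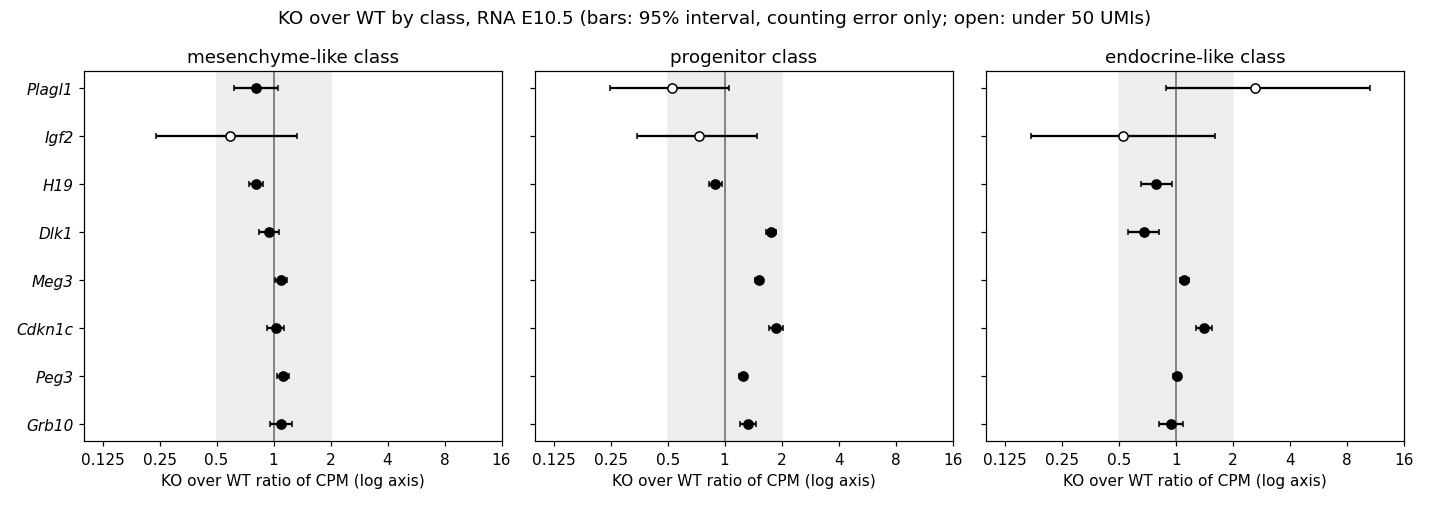
Ratio of KO over WT CPM (log axis) for each gene in the 3 named classes at E10.5; bars are 95% exact intervals of the ratio of counts, open circles are genes under 50 UMIs, and the grey band spans 2-fold lower to 2-fold higher. Dlk1 lies right of 1 in the progenitor class (ratio 1.75) and left of 1 in the endocrine-like class (0.676), and every filled point lies inside the band.

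Neurog3, the transcription factor that starts endocrine differentiation, was used to split the endocrine-like cells by whether a Neurog3 UMI was seen. It was seen in 7 of 58 WT and 34 of 127 KO cells. Cdkn1c had 903 CPM with and 836 without Neurog3 in the WT library, and 1290.2 and 1158 in the KO library, with overlapping intervals in each. Meg3 was lower in the cells with Neurog3, at 1399.5 against 3075 CPM (WT) and 2123 against 3573 CPM (KO), and Peg3 was lower as well, at 1524 against 3429 (WT) and 2977 against 3425 CPM (KO). H19 was higher in the cells with Neurog3, at 496 against 249 CPM (WT) and 289.5 against 192 CPM (KO). The cells with Neurog3 were shallower, with a median of 8368 against 11717 UMIs (WT) and 7827 against 10549 (KO), and they held less Gcg, the glucagon RNA of alpha cells, at 17.7 against 26033 CPM (WT) and 2899 against 21494 CPM (KO).

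Across the 10 sums of 5 clusters and 2 libraries, the Pearson correlation of log2(CPM + 10) was highest among member pairs for Meg3 with Peg3 (r = 0.97). That value rests on cluster 3: over the 8 sums without it, a calculation added after seeing the data, r was 0.63. Without cluster 3, H19 and Peg3 ran in opposite directions (r = -0.94), and H19 and Dlk1 together (r = 0.78). Over all 10 sums these pairs had r = -0.21 and 0.65. Dlk1 and Meg3, which share a locus, had r = -0.32 over 10 sums and 0.19 over 8. The points share libraries and cells of 1 cluster, so these are descriptions. Within cells of 1 class thinned to 2000 UMIs, 124 of 154 values of r lay between -0.2 and 0.2, and the range was -0.45 (Dlk1 with Peg3, progenitor class, KO) to 0.59. Dlk1 with Meg3 in the mesenchyme-like class had 0.59 (110 WT cells) and 0.35 (65 KO cells).

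**Figure D3:**
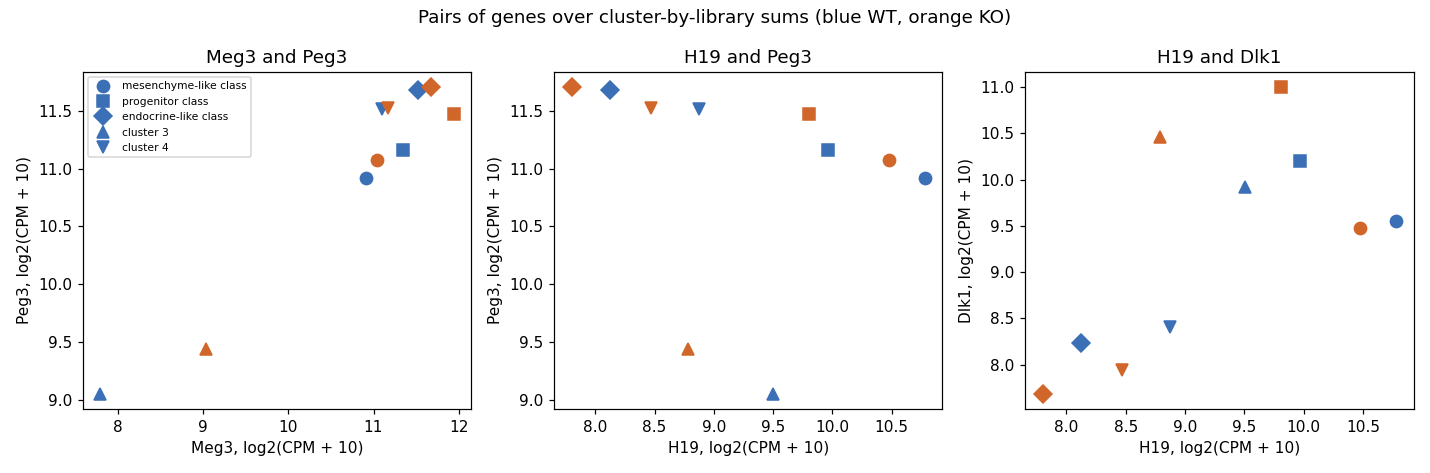
Levels of 3 pairs of genes as log2(CPM + 10) in the 10 cluster-by-library sums; shapes are clusters, blue is WT and orange KO. The 2 points of cluster 3 lie apart at the bottom of both Peg3 panels, and the other 8 points fall from upper left to lower right for H19 and Peg3 (r = -0.94).

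Of the 2789 other genes with at least 500 UMIs, the nearest to Plagl1 over the 10 sums were Itm2a (r = 0.96), Col3a1 (a fibrillar collagen chain, 0.90) and U2af2 (0.89). The nearest to H19 were Rtf1, Nop58 and Cdca7 (0.94 to 0.96), and to Dlk1 they were Apoe (0.97), Phgdh (0.93) and Spr (0.92). Those of Cdkn1c were Usp14, Cops8 and Mysm1 (0.90 to 0.93), and those of Igf2, at its low counts, were Eif2s2, Rps27l and Krtcap2 (0.88 to 0.90). For Meg3 (Ank3, Akap9, Nbeal1) and Peg3 (Mycbp2, Kcnq1ot1, Golga4) r was 0.98 over 10 sums and 0.74 to 0.88 without cluster 3. For Grb10, Fasn and Ptprs had r = 0.98, and 0.94 without cluster 3.

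Other genes of the same kinds were read from lists. Of 40 further imprinted genes, 38 were in the matrix. Endocrine-like over progenitor cells, 9 of 26 tested were past 2-fold higher and 2 lower in the WT library, and 9 and 3 of 28 in the KO library. Of all genes, 7.64% and 8.75% (WT) and 8.2% and 8.52% (KO) did so. Peg10, a retrotransposon-derived imprinted gene, was highest at 4.40 and 3.45, Mest was lowest in the WT library at -2.21 and Slc38a4 in the KO library at -2.54. Over genotypes in the progenitor class, 1 of 26 was past 2-fold higher (Asb4, 1.17) and 1 lower (Mest, -1.11), beside 1.39% and 0.695% of all genes, with a median of 0.34. In the endocrine-like class the median was 0.00 and none of 26 passed.

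IGF pathway genes were lower in the endocrine-like class than in the mesenchyme-like class, 9 of 12 past 2-fold in the WT and 8 of 12 in the KO library, beside 11.4% and 8.6% of all genes, with Igf1 at -2.55 in the WT and Igfbp5 at -2.31 in the KO library. Igfbp2, an IGF-binding protein, was higher by 1.01 and 0.77. The cyclin kinase inhibitor Cdkn1a (p21) was 2.67 and 2.15 higher in endocrine-like than in progenitor cells, where Cdkn1c differed by 0.46 and 0.06. All 6 proliferation genes were past 2-fold lower there in both libraries, beside 8.75% and 8.52% of all genes, with medians of -2.33 and -2.51. Of the genes that maintain imprints, Uhrf1, which brings Dnmt1 to newly made DNA, was lowest in endocrine-like cells at -1.70 and -2.27 against the progenitor class. Between genotypes none of the tested imprint maintenance genes passed 2-fold in the 3 named classes.

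The ATAC matrices give a gene score per cell, an accessibility value scaled by the authors so that each cell sums to 10000. Depth in fragments is unknown, so mean scores carry no interval. At E10.5, 838 WT and 700 KO cells formed an endocrine-like cluster (58 and 66 cells) and clusters 0 and 1, which were not named. At E13.5, 2314 WT and 602 KO cells formed an endocrine-like cluster (361 and 47), an erythroid-like cluster (140 and 270) and the unnamed clusters 0 (1091 and 239) and 1 (722 and 46). Cluster 1 at each stage holds cells with few genes above 0. At E13.5 the barcode prefixes of the 2 libraries name different months, and genotype there cannot be told apart from month.

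H19, Igf2 and Plagl1 had lower scores in endocrine-like cells than in the other cells in all 4 ATAC libraries. At E10.5, H19 had 1.94 in WT endocrine-like cells and 3.39 in cluster 0, and 1.34 and 3.999 in the KO library. Igf2 had 0.619 and 1.38 (WT), and 0.534 and 1.53 (KO). Plagl1 had 0.518 and 0.722 (WT), and 0.361 and 0.724 (KO). At E13.5 the endocrine-like cells again lay below cluster 0: H19 had 1.95 and 3.24 (WT) and 1.82 and 3.25 (KO), and Plagl1 had 0.446 and 0.853 (WT) and 0.350 and 0.738 (KO).

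As log2 ratios of endocrine-like over all other cells, erythroid-like cells left out, Igf2 had -1.09 (WT) and -1.56 (KO) at E10.5 and -0.55 and -1.38 at E13.5. H19 had -0.87 and -1.53, then -0.62 and -0.92. Plagl1 had -0.58 and -1.01, then -1.01 and -1.09. Past 1.5-fold lower were 2 of 8 members in the E10.5 WT library (beside 10.8% of all genes), 3 of 8 in the E10.5 KO (11.2%), 2 of 8 in the E13.5 WT (4.21%) and 3 of 8 in the E13.5 KO library (13%). The score of H19 and its RNA were thus both lower in endocrine-like cells, and Igf2, whose RNA could not be read, had a lower score there too.

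Peg3 had a higher score in endocrine-like cells in all 4 libraries, with log2 ratios of 0.56 (WT) and 0.59 (KO) at E10.5 and 0.19 and 0.40 at E13.5. Dlk1 and Meg3 were both higher in endocrine-like cells at E10.5, with Dlk1 at 0.70 (WT) and 0.26 (KO) and Meg3 at 0.69 and 0.22. At E13.5 Dlk1 had -0.17 and 0.01, and Meg3 had -0.25 and 0.71. Past 1.5-fold higher were Dlk1 and Meg3 in the E10.5 WT library (2 of 8, beside 6.82% of all genes), Peg3 in the E10.5 KO library (1 of 8, beside 6.82%), no member in the E13.5 WT library (2.92%) and Meg3 in the E13.5 KO library (1 of 8, beside 10%). The Dlk1 score of endocrine-like cells at E10.5 (3.52 in the WT and 2.77 in the KO library) was above that of cluster 0 (2.07 and 2.17), while Dlk1 RNA in the endocrine-like class was the lowest of the 5 clusters.

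**Figure D4:**
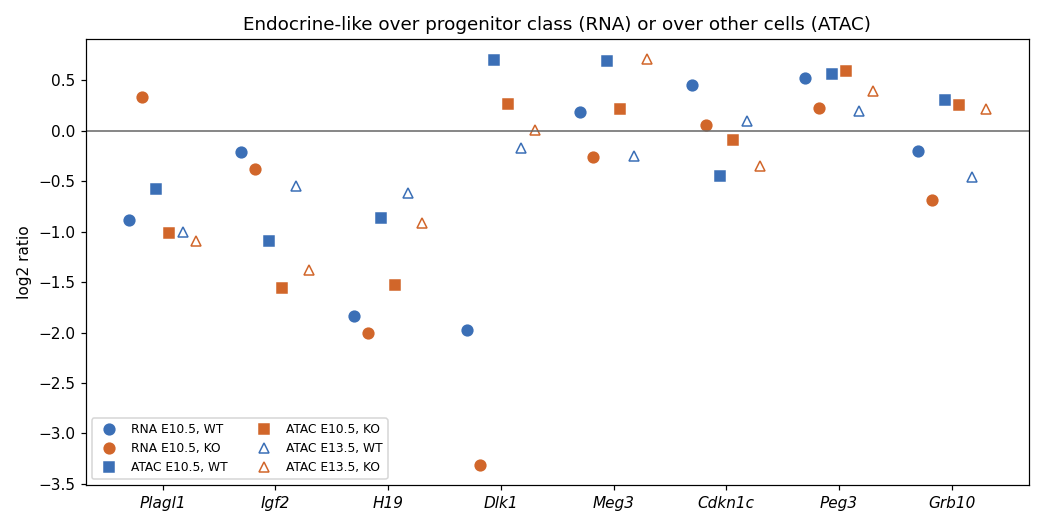
Log2 ratio of endocrine-like cells over the progenitor class (RNA, circles) or over all other cells without erythroid-like cells (ATAC score, squares at E10.5 and triangles at E13.5), in blue for WT and orange for KO; the RNA points of Plagl1 and Igf2 rest on fewer than 50 UMIs. H19 is below 0 in all 6 libraries, Peg3 is above 0 in all 6, and Dlk1 is far below 0 in RNA (-1.97 and -3.31) but not in the ATAC score.

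Between genotypes at E10.5, 0 of 8 scores passed 1.5-fold over all cells, beside 0.0852% of all genes higher and 0.17% lower. The widest difference was that of Igf2, at 1.27 in the WT and 1.48 in the KO library (log2 ratio 0.22). The other 7 members lay between -0.13 and 0.13. Dlk1, which differed in progenitor RNA, had 2.26 and 2.35 (0.06), and Cdkn1c had 2.21 and 2.42 (0.13). In cluster 0 alone, H19 had 3.39 and 3.999 (0.24) and Cdkn1c 2.12 and 2.44 (0.20). In the endocrine-like cluster no member passed 1.5-fold, beside 5.54% of all genes higher and 5.76% lower. There H19 (-0.54), Meg3 (-0.53) and Plagl1 (-0.52) were the lowest.

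At E13.5, over all cells, Meg3 went from 2.35 to 1.25 (log2 ratio -0.91), Plagl1 from 0.776 to 0.432 (-0.84) and Dlk1 from 2.64 to 1.59 (-0.73). These were 3 of 8 members past 1.5-fold lower, beside 11.9% of all genes, and no member was past it higher (6.8%). Without the 10% of cells at each end of genes above 0, 7 of 8 were past it lower, all but Peg3, beside 22% of all genes. The erythroid-like share of those cells was 7.26% (WT) and 59.4% (KO). Over all cells the erythroid-like share moved with genotype, from 6.05% of the WT cells (exact 95% binomial interval 5.11 to 7.10) to 44.9% of the KO cells (40.8 to 48.9). In erythroid-like cells the scores of Meg3 (0.0463 and 0.138), Dlk1 (0.0851 and 0.130), Plagl1 (0.0688 and 0.118) and Igf2 (0.103 and 0.180) were near 0. Without the erythroid-like cells, 0 of 8 members passed 1.5-fold, beside 1.23% of all genes higher and 0.827% lower. Meg3 then had 2.498 and 2.15 (-0.22), Plagl1 0.821 and 0.688 (-0.25), and Dlk1 2.80 and 2.78 (-0.01).

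The erythroid-like cells separated the members. Meg3 was above 0 in 4.29% of the WT and 11.5% of the KO erythroid-like cells, against 87.0% and 87.9% in cluster 0. Peg3 was above 0 in 52.1% and 55.9% of the erythroid-like cells, against 56.5% and 68.2% in cluster 0, and its mean score was 1.78 and 1.74, against 1.57 and 1.40. The median number of genes above 0 per cell was 3123.5 and 3710.5 in erythroid-like cells and 4292 and 5868 in cluster 0. The part of this difference in the shares was not tested. Grb10 (0.994 and 0.974) and Cdkn1c (1.02 and 1.01) lay between, and H19 had 0.502 and 0.611. Ptf1a had 0.131 and 0.308. Meg3, Plagl1 and Dlk1 were above 0 in under 10% of the WT erythroid-like cells, and no genotype difference is drawn from them there.

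Within cluster 0 at E13.5, led by Hoxb7, Sdc4 and Epop and with 14 of 14 progenitor markers raised, Meg3 had 2.72 in the WT and 1.95 in the KO library (log2 ratio -0.48), the 122nd lowest ratio of 8230 genes. Grb10 had 2.17 and 1.68 (-0.37) and Igf2 had 1.19 and 1.53 (0.37). None of 8 members passed 1.5-fold, beside 1.13% of all genes higher and 0.632% lower. In the endocrine-like cluster, Meg3 went the other way, at 2.16 and 3.22 (0.58), and no member passed it, beside 6.43% of all genes higher and 7.12% lower. The KO side of that cluster is 47 cells. In cluster 1, Igf2 (0.992 and 1.66), H19 (2.63 and 4.36) and Dlk1 (2.61 and 4.14) were past 1.5-fold higher, 3 of 8 members beside 17.3% of all genes, and none was lower (24.1%). The KO side of cluster 1 is 46 cells, of which 9 (Igf2), 11 (H19) and 16 (Dlk1) had a score above 0. Its median was 1251.5 genes above 0, against 1799.5 on the WT side.

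**Figure D5:**
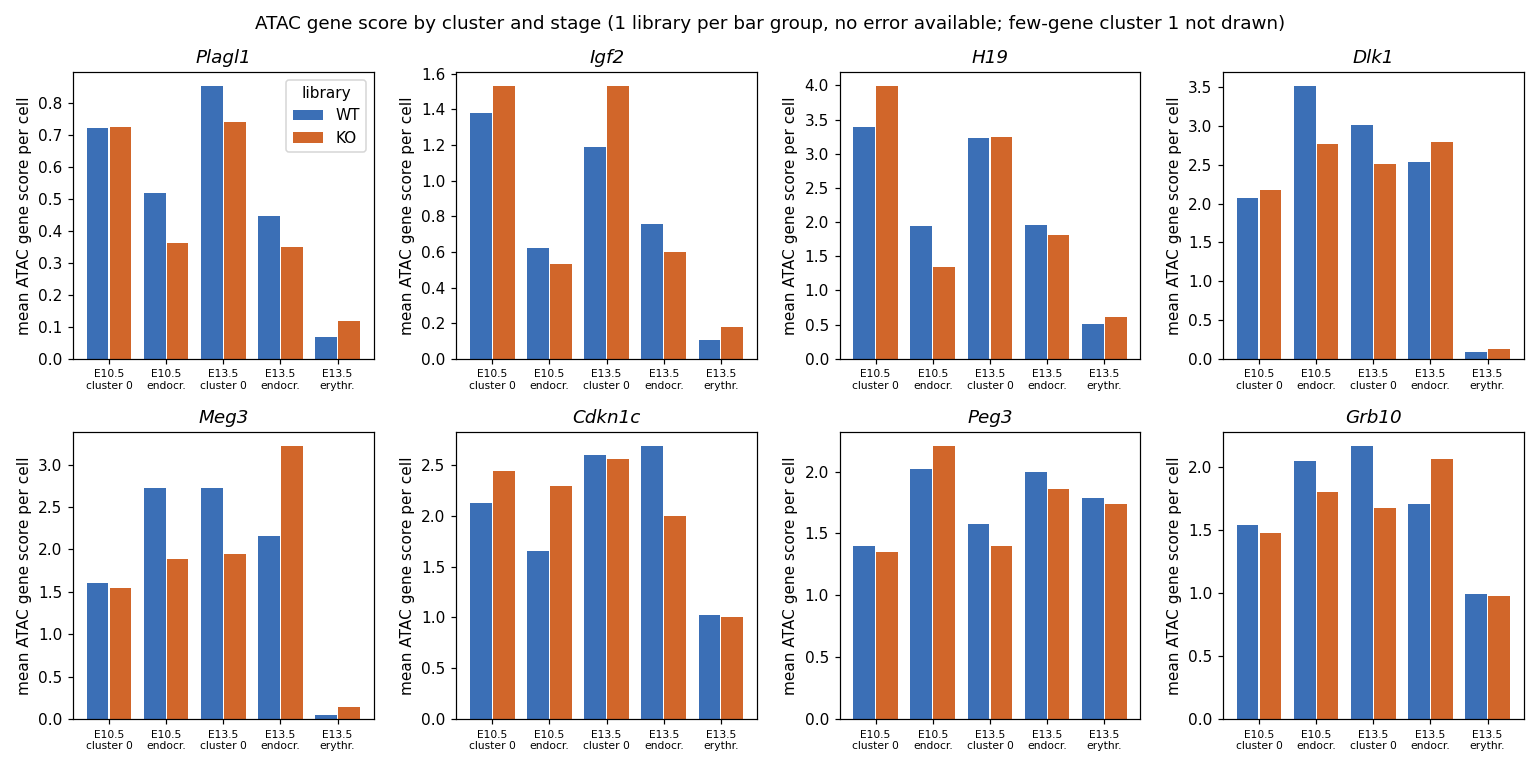
Mean ATAC gene score per cell of each gene, shown for cluster 0, endocrine-like cells (both stages) and erythroid-like cells (E13.5), for the WT (blue) and KO (orange) library; there are no error bars because each bar is 1 library and its depth is unknown. The erythroid-like bars are near 0 for Plagl1, Igf2, Dlk1 and Meg3 and at 1.78 and 1.74 for Peg3.

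The stages were clustered and scaled separately and differ in dissected tissue, so their scores are given side by side with no comparison. At E10.5 and E13.5 in cluster 0 of the WT libraries, Meg3 was at 1.61 and 2.72, Dlk1 at 2.07 and 3.02, Grb10 at 1.54 and 2.17, and Cdkn1c at 2.12 and 2.59. H19 was at 3.39 and 3.24 and Igf2 at 1.38 and 1.19. In the endocrine-like cluster, Dlk1 was at 3.52 and 2.53 (WT) and 2.77 and 2.79 (KO), Meg3 at 2.73 and 2.16 (WT) and 1.89 and 3.22 (KO), and Cdkn1c at 1.65 and 2.69 (WT) and 2.29 and 2.00 (KO).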

How the data were processed

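The RNA values are raw UMI counts per gene and cell as the authors deposited them (whole numbers in the matrices), from 10x Genomics 3′ libraries per the labels' protocols. The ATAC values are a deposited gene-level accessibility signal that sums to 10000 in each cell. The aligner, the counter and the way its 8269 genes were chosen are not given in these sources. The build is mm10 per the submitters' processing notes. Each cell's library was read from its barcode prefix, and 0 columns belonged to other samples.

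RNA cells with at least 1000 genes were kept and clustered with scanpy 1.11.5 and leidenalg 0.10.2 (2000 variable genes, 30 components, 15 neighbours, resolution 0.3). Scrublet, run per library, marked 2 WT and 8 KO cells as doublets, which stayed in. A cluster was named when a marker list averaged at least 0.3 (log2) above the other cells, with 3 markers raised and 1 among its top 10 genes, thresholds settled after the clusters were seen. RNA cluster 4 met this rule as mesenchyme-like but was left without that name because it also carried endocrine markers. UMIs were summed per class and library and divided by the total (CPM). Intervals are 95% exact Poisson, conditional binomial (ratios) or Clopper-Pearson (shares). "Past 2-fold" uses log2(CPM + 10) with at least 50 UMIs in both groups together, "past 1.5-fold" the ratio of mean scores with at least 10% of cells above 0 in a library. The ratio and interval code was tested on simulated counts. The limit for a count of 0 is 3 counts. Barcodes shared between libraries were 1 (RNA), 0 (ATAC E10.5) and 2 (ATAC E13.5).

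All 8 members are named. Other named genes are the 3 most correlated with each member (1 is not reported here), the highest and lowest of each list, and cluster leaders; Malat1, Gcg and Neurog3 are extra. The members and lists were chosen with earlier results of these data known.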

Additional observations from a re-analysis of the deposited data

Results flagged for a closer look

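Dlk1 differed in opposite directions between genotypes in 2 classes of the same RNA libraries. In the progenitor class it was higher in the KO library, with a log2 ratio of 0.80, and in the endocrine-like class it was lower, with -0.54. Both intervals of the ratio excluded 1 (1.64 to 1.86, and 0.559 to 0.818), but they cover counting error only, each genotype is 1 library, and the difference between the classes was not tested. The progenitor class of the KO library holds more cells of the Sox17 group (37 of 73, against 14 of 123 in the WT library), where Dlk1 was higher than in the Nepn group in both libraries. Within the Sox17 group the log2 ratio was 0.85, and within the Nepn group 0.28. The WT cells of the Sox17 group had 0 UMIs of Xist and the KO cells 629, and the part of sex makeup was not tested. At Leiden resolution 0.8 the cluster taken as endocrine-like held only 13 WT and 30 KO cells, 43 of the 185 cells of the main class. There the value was positive, at 0.47, from 23 WT and 67 KO UMIs of Dlk1. At resolution 0.5 the endocrine-like cluster kept 143 of the 185 cells, and Dlk1 had -0.77 (ratio 0.573, interval 0.464 to 0.709). The low-gene barcodes had 429.6 and 336 CPM of Dlk1 (-0.35).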

How the results depend on the processing

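No member passed 2-fold between genotypes in the progenitor or endocrine-like class under any of the 10 alternatives for each. Over all kept cells, thinning to 2000 UMIs brought 1 member past it (Plagl1, -1.09), and in the mesenchyme-like class so did clustering with the members kept in (1 member, Plagl1, -1.20). The mesenchyme-like cluster of that run shared only 165 of the 266 cells of the main class. Between classes, thinning moved the WT count from 1 to 2 for mesenchyme-like over progenitor cells (Dlk1 added, -1.06) and from 3 to 1 for endocrine-like over mesenchyme-like cells (H19 alone). In the latter, Plagl1 dropped out because it fell under the minimum of 50 UMIs. Thinning also left out the kept cells under 2000 UMIs (61 WT and 45 KO), and their part in these changes was not tested. Leaving out the 10% of cells at each end of genes above 0 moved the E13.5 count over all cells from 3 to 7, all lower, with an erythroid-like share of 7.26% (WT) and 59.4% (KO) in the cells left. Of 442 log2 ratios under alternatives, 24 changed sign, among them Dlk1 over all kept cells, at -0.11 with median-of-ratios scaling. No called ratio reversed, but only a ratio past the fold limit could count as reversed. The members' RNA genotype ratios over all kept cells and in the 3 named classes were all inside that limit, so the rule could not apply to them. No paired analysis was possible because each comparison has 1 library per genotype. With no cell filter the progenitor log2 ratios were 0.42 (Cdkn1c), 0.36 (Dlk1) and 0.30 (Meg3). Fewer than 50 UMIs were counted for Igf2 in each named class and for Plagl1 in the progenitor and endocrine-like classes.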
